A study of Mus musculus with 15 samples.

Results

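TET1 depletion in mouse embryonic stem cells (ESCs) was described here from the 10 libraries that compare it with a control hairpin, out of 15 RNA-seq libraries in the study. Members were taken by their label, 5 libraries named shTet1 and 5 named shScr, and the other 5, shTet2, entered the fits only to estimate the spread and for one direct comparison at the end. All cells were of the E14 line, on the 129/Ola background, grown without feeders in serum and LIF. All groups were infected with pLKO.1 lentivirus carrying a short hairpin RNA (shRNA), selected from 24 hours after infection with 1 µg/ml puromycin and collected after 3 days of selection. The shScr cells carried a non-targeting hairpin, the shTet1 cells 1 hairpin against Tet1 and the shTet2 cells 1 hairpin against Tet2. An effect of a hairpin and an effect of the lost protein therefore cannot be told apart. Total RNA, extracted by 1 of 2 methods that the labels do not assign to libraries, was depleted of rRNA before directional libraries were made.

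TET1 is a dioxygenase that oxidises 5-methylcytosine in DNA to 5-hydroxymethylcytosine and further products, a route to the loss of methylation. It binds CpG-rich promoters, is abundant in ESCs, and is found in complexes with the SIN3A corepressor and the O-GlcNAc transferase OGT. Genes that DNA methylation is known to silence, such as imprinted genes, germline genes and some retrotransposons, are therefore of interest when it is lost, as are lineage and metabolic programmes.

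The 10 libraries held 17660299 to 28008886 reads in genes and 7476759 to 10638114 in repeat classes. All values below are the deposited variance-stabilised values, on a scale close to log2 for well-covered features, and a difference is shTet1 minus shScr on that scale. The scale understates the change of genes with few reads. The 6 markers of ESCs (Pou5f1, Nanog, Sox2, Zfp42, Esrrb, Klf4) summed to 68899 to 76648 normalised reads in shScr and 74964 to 83491 in shTet1. The 5 trophoblast markers summed to 3.07 to 46.2 and 2.92 to 19.16, with Tpbpa at 0 in all 10 libraries. Primitive endoderm markers summed to 558 to 930 in shScr and 355 to 631 in shTet1, fibroblast markers to 105 to 220 and 146 to 301, and the 3 neural markers found to 1173 to 2289 and 1115 to 2163. None of these markers passed the test described next. In bulk RNA, fewer cells of a type and less RNA per cell cannot be told apart. One feature split the libraries by replicate number. The 13 genes of the mitochondrial genome took 1.47% to 2.40% of gene reads in replicates 1 and 2 of shScr and shTet1 and 0 reads in replicates 3 to 5, so differences are also given within each of these sets of replicates. Their part in the results was not tested.

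Each gene was tested in limma with Benjamini-Hochberg adjustment over 19490 genes, and a gene passed with an adjusted p under 0.05. The deviations of same-numbered shTet1 and shScr libraries from their group means correlated at 0.374 to 0.657 across genes. Other numbers gave −0.480 to 0.578. Results are therefore given without and with the replicate number as a block. The difference of a gene is the same in both fits, and the error is not.

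Tet1 (chromosome 10, 62267318 to 62361866, mm9) was lower in every shTet1 library. Its values were 14.04, 14.25, 13.68, 14.04 and 13.92 in shScr replicates 1 to 5 and 12.03, 12.18, 12.41, 12.18 and 11.93 in shTet1. The groups did not overlap, and depletion was weakest in replicate 3. Tet1 passed in both fits (difference −1.84, adjusted p = 0.00018 with the block) and in all 10 fits that each left out 1 library. Tet2 differed by −0.27 and Tet3 by −0.42, and neither passed (adjusted p = 0.114 and 0.366 with the block).

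Without the block, 14 genes passed, which was 0.0718% of those tested, 9 of them higher and 5 lower in shTet1. Beside Tet1 they have unrelated known roles in the cytoskeleton, signalling, lipid metabolism, chromatin and imprinting. For each of the 14 the groups did not overlap and all 5 same-numbered pairs moved the same way, against 2.62% of all tested genes without overlap. The exact permutation p of each was 0.00794, the smallest that 5 against 5 libraries allow. These traits come from the same values that selected the 14 genes, so they are not separate evidence. All 14 also passed with the block, both with all libraries and with any 1 of the 10 removed. Without the block, all of the 13 described here but Tet1 were lost in 4 to 8 of the 10 fits with 1 library removed.

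Some of the 14 belong to the membrane skeleton, microtubules, cell junctions and the secretory pathway. Spnb1, which encodes a beta spectrin of the membrane skeleton (chromosome 12, 77681475 to 77811534), was 7.97, 7.63, 7.65, 8.19 and 7.77 in shScr and 9.87, 9.84, 8.81, 9.50 and 8.57 in shTet1. The pairs of replicates 1 and 2 had the largest gaps and replicate 5 the smallest. Clip1, a protein of growing microtubule ends, rose by 1.19 (SE 0.19 without and 0.16 with the block), and Ppfibp1, a liprin of cell adhesion sites, by 0.82 (SE 0.15 and 0.14). Ssx2ip, a protein of centrosomes and cell junctions, was 10.45 to 10.89 in shScr and 9.94 to 10.09 in shTet1, a narrow and separate range in each group. Cpd, a carboxypeptidase of the secretory pathway, was 9.16 to 9.75 in shScr and 8.26 to 8.72 in shTet1. Epb4.1l3, another membrane skeleton gene, passed with the block only (0.75, SE 0.13, adjusted p = 0.00654). Of 24 tested genes of the spectrin and ankyrin skeleton, Spnb1 and Epb4.1l3 rose and 0 fell with the block, and 14 were higher and 10 lower. Over all genes 2.54% rose and 2.26% fell, and Spnb1 was named because it passed without the block. The count of 2 was 4, 3 and 5 without shScr replicate 3 or 5 or shTet1 replicate 5, and 2 without any other library.

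Erbb3 and Map2k4 are parts of growth factor and stress kinase pathways. Erbb3, a receptor of the EGF receptor family, was 8.70 to 9.17 in shScr and 9.66 to 10.11 in shTet1, and rose by 1.01 (SE 0.16, adjusted p = 0.0144 without the block). Map2k4, the kinase upstream of JNK and p38, was 10.71, 10.77, 10.66, 10.41 and 10.55 in shScr and 9.91, 9.80, 9.77, 9.58 and 9.97 in shTet1. It fell in every pair by a similar amount, on average by 0.81 (SE 0.13 without and 0.10 with the block). Of 28 tested JNK and p38 pathway genes, 0 rose and 2 fell with the block, Map2k4 and Atf2 (−0.34, adjusted p = 0.0493), a transcription factor that these kinases phosphorylate. Over all genes 2.26% fell. The count of 2 was 4 without shScr replicate 3, 2 without shTet1 replicate 5 and 1 without any other library.

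Other genes that passed without the block act in lipids, chromatin and the genome's imprints. Scd1, the desaturase that makes monounsaturated fatty acids (chromosome 19, 44468941 to 44482199), was 10.01, 9.20, 9.62, 9.30 and 9.98 in shScr and 12.003, 11.27, 10.70, 10.79 and 10.42 in shTet1, a separation that was narrow only in replicate 5. Paqr8, a membrane progestin receptor, was 6.61 to 7.14 in shScr and 7.45 to 8.29 in shTet1. H2afy, which encodes the histone variant macroH2A1, was 10.48, 10.38, 10.81, 11.04 and 10.77 in shScr and 11.75, 12.14, 11.44, 11.82 and 11.23 in shTet1. H2afy thus rose by 0.98 (SE 0.18, adjusted p = 0.0470 without and 0.00447 with the block). Rhobtb3, a Golgi and endosome protein, rose by 0.96 (SE 0.15). Peg3, a zinc finger gene expressed from the paternal allele (chromosome 7, 6656603 to 6683132), was 11.55 to 11.93 in shScr and 10.42 to 11.01 in shTet1.

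**Figure D1:**
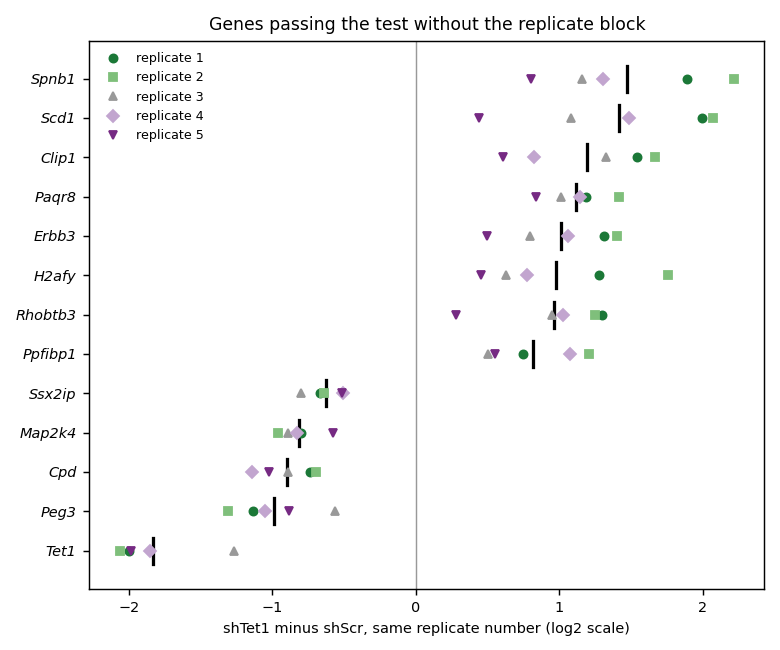
Difference between same-numbered shTet1 and shScr libraries (horizontal axis, log2 scale) for 13 of the 14 genes that passed without the block, with one marker per replicate number and a black bar at the mean. Every marker of the 8 higher genes shown lies right of 0 and every marker of the 5 lower genes left of it, and for 7 of those 8 replicate 5 has the smallest difference and replicate 2, also for 7, the largest.

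With the replicate number as a block, 935 genes (4.8%) passed, 495 higher (2.54%) and 440 lower (2.26%) in shTet1, the shares beside which the counts of list members below are given. Of these, 868 moved the same way in 5 of 5 pairs, and 169 were predicted or clone-named genes, 38 of them higher and 131 lower. Median centring of each library, which shifted all differences by about −0.05 (median over genes −0.04 in place of 0.01), gave 839 genes, 346 higher and 493 lower, with 773 shared, so the split between higher and lower depended on the scaling. The count fell to 215, 432 and 376 without shScr replicate 1, 2 or 4 and to 310, 160, 574 and 375 without shTet1 replicate 1, 2, 3 or 4. In all, 427 of the 935 passed in at least 5 of those 10 fits and 143 in all 10. Replicates 1 and 2 alone gave 0 passing genes in limma (4600 at an unadjusted p under 0.05) and replicates 3 to 5 alone gave 11. A test of the difference between those sets of replicates gave 0 genes (1600 unadjusted).

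**Figure D2:**
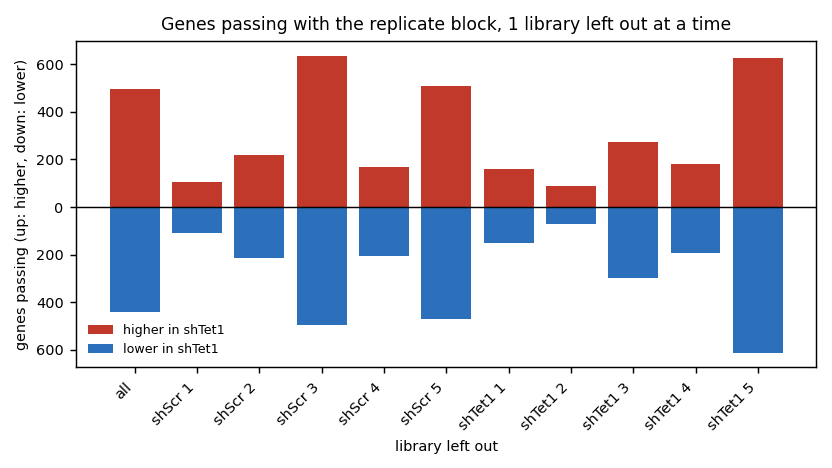
Number of genes passing with the replicate block (vertical axis, higher in shTet1 above 0 and lower below) with all libraries and with each of the 10 libraries left out (horizontal axis). Leaving out shTet1 replicate 2 gives the fewest, 160, and leaving out shTet1 replicate 5 the most, 1235.

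The largest changes were ranked among genes that passed with the block and moved the same way in all pairs, without predicted and clone-named genes and those near the table minimum. The 12 largest increases included those of Spnb1, Scd1, Hivep2, Polr3gl, Lphn2, Clip1, Aifm3, Wfdc2, Fabp3, Paqr8 and Ccdc68. Hivep2, a zinc finger transcription factor, was barely transcribed in shScr (5.23 to 6.38) and was 6.83 to 7.50 in shTet1. It rose by 1.34 (SE 0.25 with the block, adjusted p = 0.00879), and kept its call in all 10 fits that left out 1 library. Of the 116 genes named here that passed with the block, 43 kept their call in all 10 of these fits and 42 lost it in at least 5. Polr3gl, a subunit of RNA polymerase III, was 6.37 to 7.83 in shScr and 8.12 to 9.01 in shTet1. Lphn2, an adhesion receptor, was 7.31 to 9.01 against 8.80 to 10.10, groups that overlapped, and rose by 1.21 (SE 0.26). Aifm3 (1.18, SE 0.20), of the apoptosis-inducing factor family, Wfdc2 (1.15, SE 0.23), a secreted protease inhibitor-like protein, and Ccdc68 (1.10, SE 0.27) had their largest pair differences in replicates 1 and 2. Ccdc68 lost its call in 7 of the 10 fits and Lphn2 in 5. Fabp3, a fatty acid binding protein, rose in all 5 pairs although shScr replicate 4 (10.50) was above 3 shTet1 libraries. Of the exonic bases of Fabp3, 19.6% also lie in an antisense exon of another gene, and the use of strand in counting was not stated.

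Ranked in the same way, the 12 largest decreases were those of Tet1 and the 6 genes of the Zscan4 family, described below, and Ttn, Pnma5, Thbs1, Xist and Spink3. Ttn, the giant sarcomere protein, was 11.96, 13.14, 12.76, 13.36 and 13.05 in shScr and 10.38, 10.39, 12.45, 11.96 and 12.20 in shTet1, and fell most in replicates 1 and 2. Pnma5, of the paraneoplastic antigen family derived from retroelements, fell by 1.27 (SE 0.16) by a similar amount in both sets of replicates (−1.21 in replicates 1 and 2, −1.32 in replicates 3 to 5). Thbs1, an extracellular matrix glycoprotein, fell in all 5 pairs while its groups overlapped widely (6.64 to 10.14 against 5.90 to 8.32). Xist, the RNA of X inactivation, was low throughout, at 5.84 to 7.52 in shScr and 5.08 to 5.87 in shTet1, and 11.2% of its exonic bases were overlapped by exons on the opposite strand. Spink3, a secreted serine protease inhibitor, differed mostly in replicates 1 and 2 (−2.07 against −0.48 in replicates 3 to 5). Xist and Spink3 each lost their call in 6 of the 10 fits.

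Genes of the 2-cell-like state fell in the highest share of the lists examined. A small share of ESCs transiently expresses genes of the 2-cell embryo, led by the Zscan4 telomere-associated zinc fingers and by MERVL retrovirus transcripts, and the homeodomain factor Dux activates many of them. All 6 Zscan4 genes and 21 of 31 other genes of this state fell with the block, 0 rose, and 0 passed without the block. The median difference over the 37 was −1.003, beside 0.01 over all genes, and it was −1.43 within replicates 1 and 2 and −0.64 within replicates 3 to 5. Reads of these multi-copy genes may be shared between copies, so the members are not independent. The count of 27 fell to 7 and 14 without shScr replicate 1 or 2, and to 11 and 5 without shTet1 replicate 1 or 2.

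Zscan4c was 11.96, 11.98, 12.48, 12.14 and 12.40 in shScr and 9.61, 10.45, 11.64, 11.07 and 11.83 in shTet1. The groups did not overlap, and the shTet1 libraries spread over more than 2 units while the shScr libraries stayed close together. The difference was −1.28 (SE 0.28 with the block, adjusted p = 0.0195, and 0.0987 without it). Zscan4b (−1.30), Zscan4e (−1.29), Zscan4d (−1.29), Zscan4f (−1.24) and the pseudogene Zscan4-ps2 (−1.24) had about the same size. Outside the family, Usp17l5, a deubiquitinase gene, was 8.19, 8.90, 9.11, 8.82 and 8.86 in shScr and 6.97, 6.98, 8.32, 8.04 and 8.43 in shTet1. It fell by 1.03 (SE 0.18). Zfp352, an intronless zinc finger gene of the early embryo, fell by 0.95 (SE 0.21), Tdpoz4, a gene of the speckle-type POZ family, fell by 1.003 (SE 0.20), Dub2a by 0.72 (SE 0.14) and Zfp365 by 0.77 (SE 0.15). Dux itself, named after its values were seen, was 6.66 to 7.02 in shScr and 5.71 to 6.62 in shTet1, without overlap, and fell by 0.68 (SE 0.17, adjusted p = 0.0324 with the block), a call that was lost on leaving out any of 7 libraries. For Zscan4c that held for 5 libraries. Pramel7 and Pramel6, which are counted both here and among 10 Prame-like genes (0 rose, 3 fell, with 1 without shScr replicate 1 or 2 or shTet1 replicate 2 and 5 without shTet1 replicate 5), fell by 0.77 (SE 0.14) and 0.82 (SE 0.18). Pramel7 values ranged widely within groups (6.41 to 8.71 in shScr), and its decrease showed in the pairs rather than in the group means.

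The promoters of the Zscan4 genes share a motif. The 250 bases before the start of Zscan4c (chr7:11590821-11591070, plus strand) and Zscan4d (chr7:11751498-11751747, minus strand; mm9) are shown because the family fell together. Capitals mark the match to the motif known for Dux, searched on both strands, in which the 2 central bases may be any.
Zscan4c: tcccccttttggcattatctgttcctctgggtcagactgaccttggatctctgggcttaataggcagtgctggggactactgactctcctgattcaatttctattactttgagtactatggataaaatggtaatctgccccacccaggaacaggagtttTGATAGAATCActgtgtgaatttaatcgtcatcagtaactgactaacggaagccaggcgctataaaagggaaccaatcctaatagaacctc
Zscan4d: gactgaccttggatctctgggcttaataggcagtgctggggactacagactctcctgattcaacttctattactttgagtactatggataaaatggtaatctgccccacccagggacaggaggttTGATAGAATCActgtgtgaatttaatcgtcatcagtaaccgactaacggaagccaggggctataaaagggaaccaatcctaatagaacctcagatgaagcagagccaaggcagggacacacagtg
The match starts 91 bases before the start of Zscan4c and 125 before that of Zscan4d. In windows from 250 bases before to 50 after the start, it was found in all 6 Zscan4 genes, in 0 of the other 31 genes of the list, and in 37 of 19465 promoters of tested genes (0.190%). The 6 copies are near-identical and count as 1 observation.

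Endogenous retroviruses of the same state were lower too, but no repeat class passed. Of 1187 repeat classes, 0% passed without the block (10 at an unadjusted p under 0.05 in limma) and 0% with it (31). MERVL-int, the internal part of MERVL, was 17.89, 18.77, 18.68, 18.46 and 18.39 in shScr and 15.35, 16.47, 18.00, 17.63 and 17.60 in shTet1. Every pair was lower, and only shScr replicate 1 lay within the range of shTet1. The difference was −1.43 (95% confidence interval with the block −2.02 to −0.84, adjusted p = 0.0683), with −2.42 within replicates 1 and 2 and −0.77 within replicates 3 to 5. MT2_Mm, its long terminal repeat, was 15.91 to 16.65 in shScr and 13.54 to 15.80 in shTet1, without overlap (−1.28, SE 0.26, adjusted p = 0.0683). ORR1A3-int differed by −1.16 (adjusted p = 0.0877 with the block) and MERVL_2A-int by −0.72 (adjusted p = 0.289). These calls depended on the fit. With the block, MERVL-int and MT2_Mm passed with the shScr and shTet1 libraries alone (adjusted p = 0.0242 and 0.0287), with array weights (0.0153 and 0.0183), with the share of reads in olfactory and vomeronasal receptor genes as covariate (0.00365 and 0.0045), in replicates 1 and 2 alone (0.0206 each) and without shTet1 replicate 3 (0.00563 and 0.00944) or 5 (0.0281 each). Neither passed in any other fit with the block that was run, with 0.416 each without shScr replicate 1, 0.373 and 0.397 each without shTet1 replicate 1 or 2, 0.175 each with no variance trend, and 0.264 and 0.540 in replicates 3 to 5 alone.

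**Figure D3:**
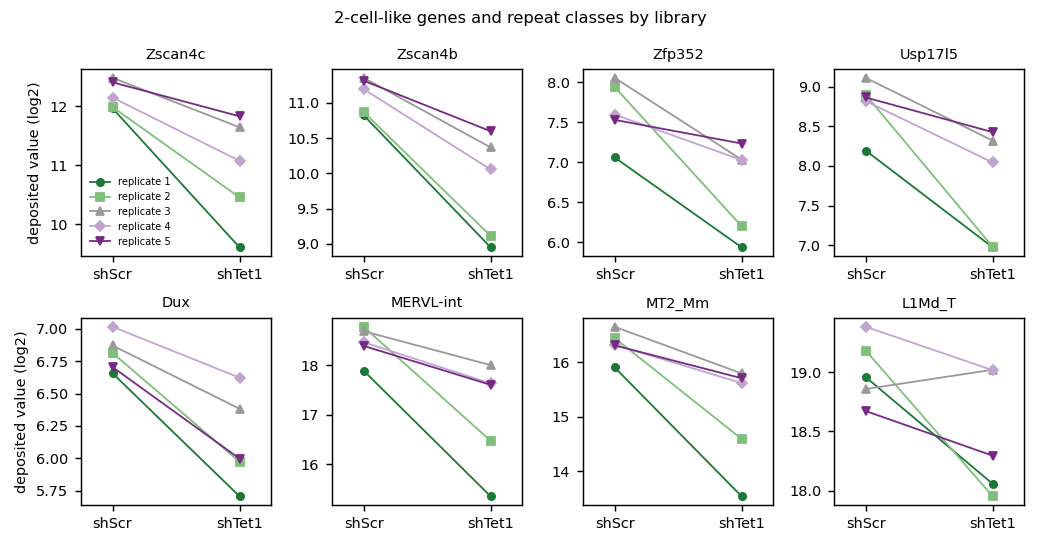
Deposited values (vertical axis, log2) in shScr and shTet1, with lines joining libraries of the same replicate number, for 5 genes of the 2-cell-like state and 3 repeat classes. The lines fall in every panel but L1Md_T, where replicate 3 rises, and fall most steeply in replicates 1 and 2.

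On the deposited scale most other repeat classes were lower, and none passed. The median over all classes was −0.06 on that scale, −0.002 under median centring and −0.006 under quantile normalisation. The general shift, and with it the counts of lower classes given next, therefore depended on the scaling. Of all 1187 classes 729 were lower, among them 25 of 25 ORR1 classes, 7 of 7 B2, B3 and B4 SINEs, 79 of 103 RLTR classes and 89 of 117 DNA transposons, while 173 of 297 simple repeats were higher. The young LINE-1 classes L1Md_T, L1Md_A and L1Md_Gf, retrotransposons still able to move, differed by −0.54, −0.47 and −0.47 (adjusted p = 0.998 each with the block). L1Md_T was 18.67 to 19.38 in shScr and 17.95 to 19.02 in shTet1, and its difference was −1.07 within replicates 1 and 2 and −0.19 within replicates 3 to 5. IAP classes (16) had a median of −0.11 and the 49 classes listed as TET1-bound in the study −0.10, beside −0.06 over all 1187 classes. Of the classes that were higher, LTR88a (0.63) and LTR58 (0.71) had the lowest p-values, and neither passed. The median over all classes was −0.47 within replicates 1 and 2 and 0.20 within replicates 3 to 5, and by pair it was −0.40, −0.55, 0.61, −0.15 and 0.06 for replicates 1 to 5. Of replicates 3 to 5, replicate 3 alone had a median far above 0. The median repeat value was 8.81 in shTet1 replicate 3 and 8.12 in shScr replicate 3. It was 8.88 and 8.76 in replicate 4 of shScr and shTet1, and 7.76 to 8.31 in the remaining libraries of these groups. The share of reads in olfactory and vomeronasal receptor genes was also highest in shTet1 replicate 3 and in replicate 4 of both groups. The part of such library-wide differences in the repeat results was not tested. In replicates 1 and 2 alone, 409 classes passed (403 lower), and in replicates 3 to 5 alone 0 (52 unadjusted).

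Some genes of sterol and fatty acid synthesis rose. Cholesterol synthesis and uptake genes are jointly controlled by the SREBP transcription factors, which also act on fatty acid desaturation. With the block, 8 of 26 sterol genes rose and 0 fell (median difference 0.39), as did 6 of 28 fatty acid genes with 0 that fell (median 0.27), beside 2.54% and 2.26% of all genes. No sterol gene passed without the block. The fatty acid list also holds Paqr8, the progestin receptor described above, and without it 5 of 27 rose (median 0.23). The sterol median was 0.51 within replicates 1 and 2 and 0.25 within replicates 3 to 5, and the fatty acid median 0.42 and 0.19. Under median centring 7 sterol and 6 fatty acid genes rose and 0 fell.

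Insig1, which retains the SREBP complex in the endoplasmic reticulum, was 10.16, 10.09, 9.90, 9.51 and 9.81 in shScr and 11.32, 11.13, 10.34, 10.38 and 9.87 in shTet1. It rose in every pair, least in replicate 5, by 0.71 on average (SE 0.14). The late-pathway enzymes Sc5d (0.49, SE 0.10), Cyp51 (0.54, SE 0.11) and Sqle (0.42, SE 0.09) rose by similar amounts. Sqle overlapped between the groups (exact permutation p = 0.190), and its call rested on the pairs. The sterol count of 8 fell to 1 and 5 without shScr replicate 1 or 4, and to 3, 3 and 5 without shTet1 replicate 1, 2 or 4.

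Beside Scd1, the fatty acid genes that rose were the desaturases Fads2 (7.21 to 8.14 in shScr and 8.14 to 9.19 in shTet1, ranges that touched) and Fads1, the acyl-CoA synthetase Acsl3 and the carboxylase Acaca. Fads2 rose by 0.97 (SE 0.18), Acsl3 by 0.70 (SE 0.13), Fads1 by 0.64 (SE 0.13) and Acaca by 0.47 (SE 0.12). Fads2 and Acsl3 kept their calls in all 10 fits that left out 1 library, and Acaca lost its call in 8. Scd2 differed by 0.54 and did not pass (adjusted p = 0.0581). Of 35 glycolysis and hypoxia genes, 5 rose and 0 fell with the block (median 0.16, 0.22 within replicates 1 and 2 and 0.13 within replicates 3 to 5), beside 2.54% and 2.26% of all genes. These were Pfkm, a phosphofructokinase (0.85, SE 0.13), Gpi1, glucose-6-phosphate isomerase (0.52, SE 0.12), Pdk1, a kinase that inhibits pyruvate dehydrogenase (0.49, SE 0.12), and the oxygen-sensing prolyl hydroxylases Egln1 (0.75, SE 0.13) and Egln3 (0.96, SE 0.21). Pfkm was 8.53 to 9.24 in shScr and 9.51 to 10.44 in shTet1, without overlap. Of the exonic bases of Gpi1, 16.5% lie in an antisense exon. The count of 5 fell to 3 without shScr replicate 1 or 4 or shTet1 replicate 1, 2 or 4, and to 2 without shScr replicate 2 or with the shScr and shTet1 libraries alone.

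The promoters of sterol genes were rich in CCAAT boxes. Searched on both strands in the window from 250 bases before to 50 after the start, CCAAT was found in 21 of 26 sterol promoters, in 13 of 28 fatty acid promoters and in 37.3% of 19465 promoters. The letters TCACNCCAC, close to a sterol response element, were in 0 of the 26 sterol promoters and in 1.18% of all. They were in 3 of 28 fatty acid promoters, those of Fasn, Acaca and Mlxipl, of which Acaca rose. ACGTG, the core of a hypoxia response element, was in 23 of 35 glycolysis and hypoxia promoters and in 22.8% of all. Insig1 (chr5:28397702-28397951, plus strand) and Sqle (chr15:59146382-59146631, plus strand; mm9) are shown as examples, with the CCAAT matches, here read on the opposite strand as ATTGG, in capitals.
Insig1: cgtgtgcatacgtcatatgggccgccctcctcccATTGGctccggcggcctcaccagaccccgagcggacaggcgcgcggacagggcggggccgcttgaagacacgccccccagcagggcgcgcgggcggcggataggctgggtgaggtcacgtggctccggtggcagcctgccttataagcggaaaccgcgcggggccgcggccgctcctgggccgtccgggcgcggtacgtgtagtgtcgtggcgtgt
Sqle: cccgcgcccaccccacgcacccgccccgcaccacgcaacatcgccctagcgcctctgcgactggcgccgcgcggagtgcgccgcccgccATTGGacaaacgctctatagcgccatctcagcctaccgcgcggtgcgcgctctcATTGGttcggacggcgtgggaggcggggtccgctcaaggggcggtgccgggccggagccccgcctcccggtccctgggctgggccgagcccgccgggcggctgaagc
Insig1 holds 1 match, 216 bases before the start, and Sqle 2, at 161 and 107 bases. The motif is common, and 14 of 35 glycolysis and hypoxia promoters held it as well, 0 of them among the 5 genes that rose. It was also in 7 of the 8 p53 targets that fell and in 51.5% of all genes that fell, against 163 of 494 that rose.

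Some targets of p53 fell. Of 38 genes of the p53 pathway, 8 fell and 0 rose with the block (median −0.30, −0.40 within replicates 1 and 2 and −0.21 within replicates 3 to 5), beside 2.26% and 2.54% of all genes, and 0 passed without it. Ccng1, cyclin G1 (chromosome 11, 40562054 to 40568813), was 14.01, 14.74, 14.35, 14.03 and 13.84 in shScr and 12.78, 13.20, 13.60, 12.94 and 13.62 in shTet1. The groups did not overlap, and the gap was narrow only in replicate 5. Ccng1 fell by 0.96 (SE 0.14) and Mdm2, the ubiquitin ligase of p53, by 0.63 (SE 0.11), with groups that were barely separate (12.47 to 13.28 and 12.04 to 12.46). Plk2, a polo-like kinase, fell by 0.99 (SE 0.18), the receptor Eda2r by 0.71 (SE 0.15), Trp53inp1 by 0.65 (SE 0.15) and the stress protein Sesn2 by 0.55 (SE 0.13). The best-known target, Cdkn1a, named after its values were seen, did not follow (6.26 to 7.27 in shScr, 6.203 to 7.58 in shTet1, difference 0.07, adjusted p = 0.891). Trp53 itself differed by 0.15 (adjusted p = 0.562). The count of 8 fell to 5 without shScr replicate 1, 2 or 4 or shTet1 replicate 3 or 4, to 4 without shTet1 replicate 1 and to 3 without shTet1 replicate 2.

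**Figure D4:**
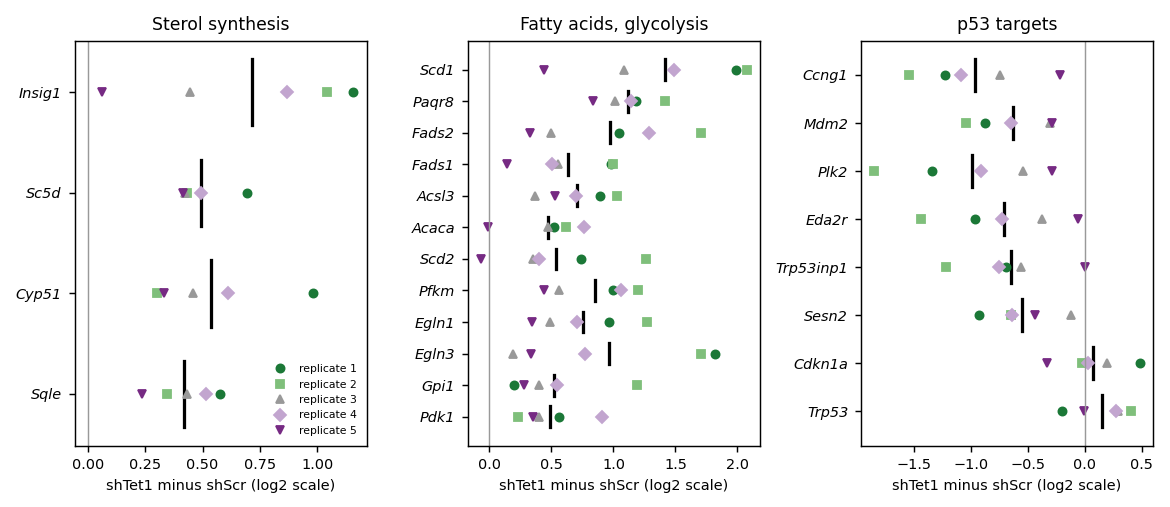
Difference between same-numbered shTet1 and shScr libraries (horizontal axes, log2 scale) for sterol genes, fatty acid and glycolysis genes, and p53 targets, with one marker per replicate number and a black bar at the mean. Markers of the genes that passed lie on one side of 0 but for Acaca in replicate 5, and Cdkn1a and Trp53 have markers on both sides of 0.

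Some germline genes whose promoters are known to be kept silent by DNA methylation fell. With the block, 9 of 46 fell and 1 rose, beside 2.26% and 2.54% of all genes, and the median was −0.15 (−0.10 within replicates 1 and 2 and −0.18 within replicates 3 to 5), beside 0.01 over all genes. Tex15, a meiotic and transposon-silencing factor, was 9.80, 10.99, 9.78, 9.98 and 9.18 in shScr and 9.39, 9.72, 9.03, 9.67 and 8.66 in shTet1. It fell in all pairs by 0.65 on average (SE 0.12), although the groups overlapped. Taf7l, a germline subunit of the basal factor TFIID, was 7.80, 8.47, 7.98, 8.80 and 8.10 in shScr and 7.09, 7.33, 7.27, 7.80 and 7.83 in shTet1. Only the highest shTet1 libraries reached the lowest shScr library, and Taf7l fell by 0.77 (SE 0.15). The meiotic cohesin Stag3 (−0.44), the synaptonemal complex gene Syce1 (−0.68), Fkbp6 (−0.66), and the piRNA-binding Argonautes Piwil2 (−0.47) and Piwil4 (−0.64) also fell. Dazl, a germ cell RNA-binding protein, differed by −0.13 (adjusted p = 0.589). The count of 10 depended on the libraries, with 6 without shTet1 replicate 3, 4 without shScr replicate 2, 3 without shScr replicate 1 or 4 or shTet1 replicate 1 or 4, 1 without shTet1 replicate 2, 4 with the shScr and shTet1 libraries alone and 6 with no filter on low values. The 250 bases before the start of Taf7l (chrX:131011030-131011279, minus strand; mm9) are shown, with the CpG sites, the substrate of DNA methylation, in capitals.
Taf7l: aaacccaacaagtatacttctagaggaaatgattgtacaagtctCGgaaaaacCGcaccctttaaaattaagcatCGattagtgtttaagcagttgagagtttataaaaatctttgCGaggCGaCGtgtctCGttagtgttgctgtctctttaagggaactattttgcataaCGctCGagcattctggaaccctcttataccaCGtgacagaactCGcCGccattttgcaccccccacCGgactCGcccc
The stretch holds 14 CpG sites, an observed-over-expected ratio of 1.13. The median ratio in the 300-base window was 0.68 over the 46 germline genes, 0.13 over the 31 genes of the 2-cell-like state outside Zscan4, and 0.65 over all tested genes. The members vary, and the window of Tex15 holds 0 CpG sites. Each window lies at the start of the longest annotated transcript, which need not be the start in use.

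Imprinted genes passed in both directions. Peg3 was the 1 of 3 tested genes of its domain to pass. Among 51 imprinted genes elsewhere, 3 rose and 2 fell with the block (median −0.14), beside 2.54% and 2.26% of all genes. By sign alone 18 were higher and 33 lower, and under median centring 1 rose and 2 fell with the block. Cdkn1c, a maternally expressed inhibitor of the cell cycle, was 10.40, 10.47, 10.22, 9.997 and 10.54 in shScr and 8.85, 9.24, 9.48, 8.97 and 10.17 in shTet1. Its groups overlapped only through shTet1 replicate 5, and it fell by 0.98 (SE 0.15, adjusted p = 0.00431). The growth factor gene Igf2 fell by 1.03 (SE 0.24), and the linked H19 differed by −0.55 without passing (adjusted p = 0.0639). Slc38a4 (0.41, SE 0.09), an amino acid transporter, Atp10a (0.64, SE 0.16) and Ppp1r9a (0.39, SE 0.10) rose. The count of 5 fell to 1 without shScr replicate 1 or shTet1 replicate 2, to 2 without shScr replicate 4 or shTet1 replicate 1, 3 or 4, and to 3 without shScr replicate 2, with no filter on low values or with the shScr and shTet1 libraries alone.

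Some genes of TGF-beta family signalling passed with the block. Lefty2, a secreted Nodal inhibitor that Nodal itself induces, was 11.44, 11.01, 10.78, 10.68 and 9.26 in shScr and 12.42, 12.57, 11.51, 11.69 and 9.93 in shTet1. The replicates differed more than the groups, and each pair rose (0.99, SE 0.18 with the block and 0.52 without). Lefty1 rose by 0.61 (SE 0.12 with and 0.70 without the block) and Smad3, a transducer, by 0.63 (SE 0.16). Nodal differed by −0.44 and did not pass (adjusted p = 0.0841). In all, 3 of 26 genes of this pathway rose and 0 fell (median 0.20), beside 2.54% and 2.26% of all genes. The count was 1 without shScr replicate 1 or shTet1 replicate 2. Of 27 BMP genes, the transducer Smad1 (0.69, SE 0.14) and the receptor gene Bmpr1a (0.38, SE 0.09) rose, and the targets Id2 and Id3 fell. Id2 was 8.28 to 9.51 in shScr and 7.35 to 8.21 in shTet1, without overlap (−0.79, SE 0.15), and Id3 differed by −0.72 (SE 0.17). The BMP count of 4 was 14.8%, beside 4.8% of all genes. It was 1 without shScr replicate 1 or shTet1 replicate 2, 8 without shTet1 replicate 5 and 2 with the shScr and shTet1 libraries alone. Outside this family, Spry1, a feedback inhibitor of ERK signalling, rose by 0.64 (SE 0.13). It was the 1 of 33 FGF and ERK response genes to pass (3.03%). Sfrp2, a secreted Wnt antagonist, rose by 0.92 (SE 0.17), the 1 of 45 Wnt pathway genes to pass (2.22%). Both shares were below the 4.8% of all genes. Of the exonic bases of Sfrp2, 16.1% were overlapped on the opposite strand.

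Pluripotency genes stayed close to control. Pou5f1 differed by −0.10 (adjusted p = 0.695) and Nanog by 0.22 (adjusted p = 0.378). Of 20 naive genes 1 rose, Dppa3, a maternal factor that guards the methylation state of the early embryo (7.74 to 9.50 in shScr and 9.28 to 10.10 in shTet1, 1.07, SE 0.23). Of 16 core genes 1 fell, the RNA-binding Lin28a (−0.64, SE 0.13). Of 24 trophoblast genes 3 rose, among them Eomes (0.80, SE 0.17), a T-box factor, and the cadherin Cdh3 (0.55, SE 0.12). That count was 1 without shScr replicate 1 or shTet1 replicate 1, 0 without shTet1 replicate 2, 5 without shScr replicate 3 and 6 without shTet1 replicate 5. Eomes was the 1 gene of 21 of the primitive streak list to pass. The shares passing were 5.0% (naive), 6.25% (core), 12.5% (trophoblast) and 4.76% (primitive streak), beside 4.8% of all genes. None of 30 primitive endoderm genes passed, among them Gata6 (−0.38, adjusted p = 0.416), and none of 24 neural genes. None of 82 cytosolic and 77 mitochondrial ribosomal protein genes, 39 proteasome genes, 67 clustered histones, 38 replication genes or 21 genes of the endoplasmic reticulum stress response passed. Beside a share of 4.8% over all genes, a count of 0 in the shorter of these lists does not show that they were spared.

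**Figure D5:**
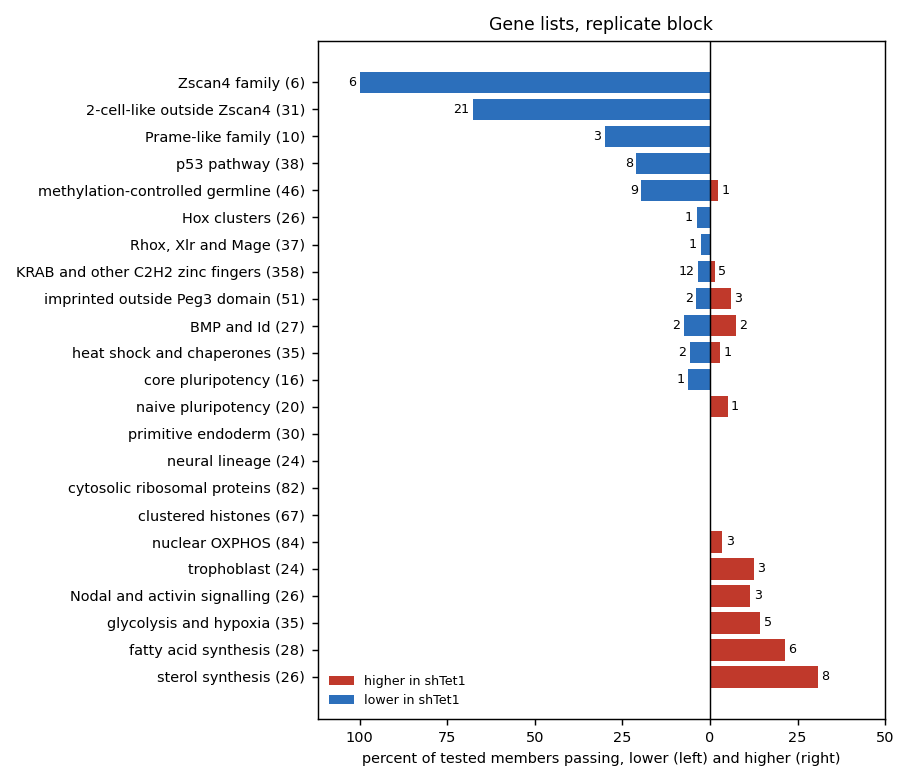
Percent of the tested members of 23 gene lists that passed with the replicate block (horizontal axis, lower in shTet1 to the left and higher to the right), with the number passing beside each bar and the number tested in brackets. All 6 Zscan4 genes and 21 of 31 other 2-cell-like genes lie to the left, and 8 of 26 sterol and 6 of 28 fatty acid genes to the right.

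Chromatin and silencing genes gave few calls. Zbtb33 (Kaiso), a reader of methylated CpG, was 9.69 to 10.83 in shScr and 9.08 to 9.58 in shTet1, without overlap (−0.71, SE 0.14). Zfp809, a zinc finger protein that directs silencing to retroviral sequences, fell by 0.60 (SE 0.11), Rif1, a replication timing factor, by 0.55 (SE 0.13), and the Polycomb-associated Scml2 by 0.54 (SE 0.11). Of 31 retroelement silencers and heterochromatin factors, 1 rose and 2 fell with the block (median −0.03). By sign, 14 of them were higher and 17 lower. Of 34 Polycomb genes 1 fell, and of 21 DNA methyltransferases and methyl-CpG readers 1 rose and 1 fell. Over all genes 2.54% rose and 2.26% fell. Of 358 KRAB and other C2H2 zinc finger genes, 12 fell and 5 rose (4.75%, beside 4.8% of all genes, median −0.08), among them Zfp28 (−0.66), Zfp353 (−0.78) and Zfp827 (0.82). That count of 17 ranged from 2 without shTet1 replicate 2 to 29 without shTet1 replicate 5, and was 4, 5 and 8 without shScr replicate 1, 2 or 4, 8, 9 and 10 without shTet1 replicate 1, 3 or 4, and 6 with the shScr and shTet1 libraries alone. On the X chromosome, Rhox10 (−0.75, SE 0.20) was the 1 of 37 Rhox, Xlr and Mage genes to pass, lost its call in 9 of the 10 fits that left out 1 library, and 18.5% of its exonic bases were shared with another gene of the same strand. Hoxa10 (−0.64), near the table minimum in all libraries (4.25 to 5.51), was the 1 of 26 Hox genes. Of 35 heat shock and chaperone genes, Hspa1a (−0.71, SE 0.19, with 18.9% of its exonic bases overlapped on the opposite strand) and Hspa1b (−0.70, SE 0.16) fell. The small heat shock gene Hspb8 rose (0.59, SE 0.14). Of 38 cell cycle genes 2 rose, Cdk6 (0.70, SE 0.14) and Rbl1 (0.52, SE 0.14), and 1 fell. Of 84 nuclear genes of oxidative phosphorylation 3 rose, Ndufs6 (0.62), Sdha (0.42) and Atp5sl (0.57), a count that was 1 without shScr replicate 1 or 5 or shTet1 replicate 1 or 4, 0 without shScr replicate 2 or 4 or shTet1 replicate 2 or 3, and 0 with the shScr and shTet1 libraries alone. Of 41 interferon and RNA sensing genes 2 rose, Ifitm3 (0.53, SE 0.12) and H2-K1 (0.60, SE 0.14), and of 35 genes of the ATF4 stress response 2 fell, Sesn2 and Cth (−0.62, SE 0.15). The shares passing were 8.57% (heat shock), 7.89% (cell cycle), 3.57% (oxidative phosphorylation), 4.88% (interferon) and 5.71% (ATF4), beside 4.8% of all genes.

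Genes were also grouped by the stem of their symbol. Of 124 symbol stems with at least 15 tested genes, Zscan had the highest share that fell (6 of 16, all Zscan4). Kctd (2 of 21, with 1 that rose) and Ttc (4 of 43) followed, beside 2.26% of all genes. In Ttc, the adjacent genes Ttc30a2 (−0.64), Ttc30b (−0.58) and Ttc30a1 (−0.56), which encode related proteins of ciliary transport, fell, and near-identical copies may share their reads. The highest shares that rose were those of Bcl (Bcl7a 0.82, Bcl2l2 0.59 and Bcl7c 0.57, 3 of 20) and of H (6 of 42, with 1 that fell), beside 2.54% of all genes. The H stem gathers unrelated genes by their first letter, among them H2afy, H6pd (0.94) and the class I histocompatibility genes H2-K1 and H2-Q7 (0.59). In Bcl too, a shared stem does not make the genes related. Part of the exonic bases of Bcl2l2 (13.3%) were shared with another gene of the same strand. The potassium channel gene Kcnk1 rose by 1.03 (SE 0.13) and kept its call in all 10 fits that left out 1 library.

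Genes that passed with the block also lay side by side. Runs of at least 3 neighbours among the tested genes that moved the same way numbered 14, 12 lower and 2 higher, with 58 genes in all. The longest were 9 predicted genes on chromosome 10, 8 genes on chromosome 2 and the 6 Zscan4 genes on chromosome 7 (11486098 to 12104460, mm9). Such runs hold mainly copies of the same gene. The neighbour of Spnb1, Plekhg3, which encodes an activator of small GTPases, rose by 0.96 (SE 0.18), with 8.66 to 9.40 in shTet1 and 7.75 to 8.40 in shScr. The neighbour of Tet1, the mitochondrial carrier Slc25a16, fell by 0.41 (SE 0.10, adjusted p = 0.0299), and was 9.89 in shTet1 replicate 5 against 9.40 to 9.46 in the other shTet1 libraries.

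The genes that rose and fell differed in their promoters, and the shares that rose and fell varied between chromosomes. Observed-over-expected CpG in the 300-base promoter window had a median of 0.72 in the 494 annotated genes that rose, 0.46 in the 439 that fell and 0.65 in all 19465. Without predicted genes and the 2-cell-like lists, the median of the genes that fell was 0.63 (290 genes), beside 0.73 for genes that rose and 0.69 for all genes, each without predicted ones. Genes that rose were longer (29.7 kb, 11 exons) than all tested genes (18.98 kb, 8 exons), and genes that fell were 19.4 kb with 7 exons, or 29.7 kb with 11 exons without predicted and 2-cell-like genes. Genes that passed were also better covered, with median shScr values of 8.15 and 8.60 for higher and lower genes and 7.36 for all. The X chromosome held 748 tested genes, of which 1.34% rose and 3.48% fell, beside 2.54% and 2.26% of all genes. Other chromosomes departed from these shares too. On chromosome 12, 3.02% rose and 3.62% fell, and on chromosome 8, 3.76% rose and 1.22% fell. No test was made of these descriptions.

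The shTet2 libraries were also compared directly with shTet1. The difference from shTet2 was −0.87 for Map2k4 (adjusted p = 0.000535), −1.16 for Peg3 (0.000332) and −0.85 for Cpd (0.00143). H2afy was higher by 0.93 (adjusted p = 0.00508) and Scd1 by 1.36 (0.00304). Erbb3 and Rhobtb3 did not pass against shTet2 (0.45 each, adjusted p = 0.136 and 0.114) in the fit without the block, and with it Rhobtb3 passed (0.0487) and Erbb3 did not (0.0552). The difference from shTet2 was −2.24 for Zscan4c and −2.15 for MERVL-int, and both passed (adjusted p = 0.000315 and 0.0145). Part of these differences lay in shTet2, where Zscan4c was 13.16 ± 0.35 (SD, n = 5) beside 12.195 ± 0.24 in shScr, and MERVL-int 19.17 ± 0.24 beside 18.44 ± 0.35. Ccng1 also passed (−1.01, adjusted p = 0.00304), as did Acsl3 (0.77, adjusted p = 0.0127). Fads2 (0.50, adjusted p = 0.268), Lefty2 (0.22, 0.915) and Dppa3 (−0.34, 0.665) did not.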

How the data were processed

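RNA-seq of rRNA-depleted RNA was made from 15 E14 ESC libraries, of which 10 are compared here. Per the study's methods, the authors trimmed reads with Trim Galore 0.3.3, aligned them to mm9 with TopHat2 2.0.9, counted them per gene and pooled per repeat class in Seqmonk, and deposited variance-stabilised values from DESeq2, which are on a log2 scale (26061 genes, minimum 4.25, and 1217 repeat classes, minimum 2.39). The use of strand in counting is not given in the sources used here. Inverting the transformation gave whole reads for 100% of values (tolerance 0.1), from which depth and normalised reads were taken. Features that exceeded the minimum in 5 or more of the 15 libraries entered the test on the deposited log2 values in limma 3.58.1 (R 4.3.3) with a variance trend and all 15 libraries, with the group alone and with the replicate number as a block, at a Benjamini-Hochberg adjusted p under 0.05. Confidence intervals are at 95%.

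The replicate number was used as a block because every same-numbered shScr and shTet1 pair correlated above 0.1 in its deviations from the group means. Across genes, other numbers gave −0.480 to 0.578, and 4 of 5 shTet1 libraries correlated best with their own number. shScr replicate 1 correlated equally with shTet1 replicates 1 and 2 (0.578), so passing 0.1 does not by itself show that single numbers pair. Across repeat classes, same numbers gave 0.313 to 0.809 and other numbers −0.723 to 0.784. There, 3 of 5 shTet1 libraries correlated best with their own number. Nothing in the labels says that replicates are separate cultures, so p-values measure the spread between these libraries, which may be technical. Single values were also tested by an exact two-sided permutation over 252 splits, whose smallest p is 0.00794.

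Genes were named where they passed without the block, were among the 12 largest changes in each direction that passed with it and moved the same way in all pairs (without predicted or clone-named genes and those with a higher mean under 2 units above the minimum), or passed as members of the lists, and Dux and Cdkn1a were added after their values were seen. Some genes that meet this rule are not reported here. The members and lists were chosen with earlier results of these data known. Positions are from GENCODE vM1 on mm9, and promoter sequence is from the mm9 genome. Promoter windows were placed at the start of the longest annotated transcript of each gene. Alternatives were median centring, quantile normalisation, depth-scaled log2 reads with a pseudocount of 0.5, filters, array weights, the share of reads in olfactory and vomeronasal receptor genes as covariate, fewer libraries and leaving out each library.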

Additional observations from a re-analysis of the deposited data

Results flagged for a closer look

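Of 272 groups of 5 libraries, 1 for each named gene or repeat class in shScr and in shTet1, 8 held a library whose gap to its nearest neighbour exceeded Dixon's 95% limit of 0.71 of the group's range. Chance flags about 1 group in 20. In shScr, Fabp3 was 10.50 in replicate 4 (nearest library 8.97), Zfp809 was 10.93 in replicate 3 (10.66), Hoxa10 was 4.82 in replicate 1 (5.32) and Cdk6 was 8.80 in replicate 5 (8.25). In shTet1, Igf2 was 7.60 (6.26), Slc25a16 was 9.89 (9.46) and Bcl7a was 8.44 (9.04), all in replicate 5, and H19 was 7.01 in replicate 1 (8.13).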

How the results depend on the processing

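The replicate block set how many genes passed, 935 with it and 14 without. Without the block the count was 56 with array weights, 1 at an adjusted p under 0.01, 22 with quantile normalisation, 97 with the share of reads in olfactory and vomeronasal receptor genes as covariate, 3 with the shScr and shTet1 libraries only, 39 with a stricter filter, and 1 to 171 with 1 library left out. A factor for replicates 1 and 2 against 3 to 5, added after seeing the data, gave 264. With the block it was 390 with those 10 libraries only, 142 at the stricter call, 0 and 11 in replicates 1 and 2 or 3 to 5 alone (also added), and 160 to 1235 with 1 library left out (215, 432 and 376 without shScr replicate 1, 2 or 4, and 310, 160, 574 and 375 without shTet1 replicate 1 to 4). Repeat classes gave 22 without the block and 80 with it under array weights, 4 in either fit with the receptor share covariate, 409 in replicates 1 and 2 alone, 2 with 10 libraries only, and 0 to 4 with 1 library left out and the block. Differences that changed sign were Cdkn1a (−0.0383 in replicates 3 to 5 alone, −0.0492 without shScr replicate 3, −0.12 without shTet1 replicate 1), Pou5f1 (0.0225 with array weights, 0.14 in replicates 3 to 5 alone, 0.0167 without shScr replicate 2) and Gata6 (0.079 in replicates 3 to 5 alone), none of which passed. Of 136 named features, 103 passed with the block and not without it. The cause of these changes was not tested. Depth limits the genes near the table minimum, such as Hoxa10.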
